A study of Arabidopsis thaliana with 4 samples.

Results

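The SnRK2 kinases (SNF1-related protein kinases 2) of Arabidopsis thaliana are a family of 10 genes, SnRK2.1 to SnRK2.10, and their transcripts were measured in nuclei of root tips with and without osmotic stress. The members were taken by gene identifier, as 10 of the 32833 genes in the deposited tables, with no filter on their measured values. The choice of this family was made with earlier results of these data known. All plants were of the Col-0 accession and carried no transgene or mutation. The 2 control samples came from plants grown on MS medium, and the 2 osmotic stress samples came from plants grown on the same medium with sorbitol, a sugar alcohol that lowers the water potential outside the root. For each sample, RNA and open chromatin were read from the same nuclei, and the study describes the 2 samples of a group as biological replicates. The study asked how root cell types differ in their response to osmotic stress.

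SnRK2 proteins are plant serine/threonine kinases that become active soon after water is withdrawn from a cell, and they are switched on by phosphorylation, so a transcript level is not a kinase activity. Subclass III (SnRK2.2, SnRK2.3 and SnRK2.6) is the part of the family that abscisic acid (ABA) strongly activates. Clade A PP2C phosphatases hold these kinases inactive until the PYR/PYL receptors bind ABA and block the phosphatases. The freed kinases then phosphorylate bZIP transcription factors and ion channels. Subclass I (SnRK2.1, SnRK2.4, SnRK2.5, SnRK2.9 and SnRK2.10) is activated without ABA and acts on the mRNA decapping protein VARICOSE. Subclass II (SnRK2.7 and SnRK2.8) responds weakly to ABA. Raf-like kinases of groups B2, B3 and B4 stand above the family in osmotic signalling.

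Promoter sequences are shown for the 2 kinases whose transcripts rose in whole libraries, SnRK2.8 and SnRK2.9, and for SnRK2.3, whose transcript fell in 1 epidermal class. Each run holds the 250 bases before the annotated gene start, read 5′ to 3′ along the gene, from the RefSeq assembly TAIR10.1 at the coordinates of the TAIR10 gene models. Capitals mark matches on either strand to the ABA-responsive element core ACGTG.
SnRK2.8 (chr1:29459494-29459743, minus strand): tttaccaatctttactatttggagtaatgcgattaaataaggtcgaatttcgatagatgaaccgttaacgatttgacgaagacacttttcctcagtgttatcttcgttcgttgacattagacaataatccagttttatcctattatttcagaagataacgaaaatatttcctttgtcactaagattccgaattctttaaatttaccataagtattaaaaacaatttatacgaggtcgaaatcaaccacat
SnRK2.9 (chr2:9806732-9806981, minus strand): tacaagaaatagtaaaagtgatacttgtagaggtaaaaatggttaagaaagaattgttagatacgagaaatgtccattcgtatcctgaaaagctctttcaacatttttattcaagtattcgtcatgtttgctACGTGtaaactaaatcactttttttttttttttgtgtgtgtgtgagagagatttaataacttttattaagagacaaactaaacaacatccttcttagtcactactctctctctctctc
SnRK2.3 (chr5:26710052-26710301, plus strand): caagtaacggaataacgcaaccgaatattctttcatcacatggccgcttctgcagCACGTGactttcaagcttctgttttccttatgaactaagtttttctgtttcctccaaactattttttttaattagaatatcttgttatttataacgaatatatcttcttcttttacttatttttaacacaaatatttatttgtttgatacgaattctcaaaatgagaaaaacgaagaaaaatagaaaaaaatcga
The ACGTG core stood 118 bases before the start of SnRK2.9. In the promoter of SnRK2.3 it was part of CACGTG, which reads the same on both strands and so counts as 2 overlapping matches, 195 and 194 bases before the start. The SnRK2.8 window held no match. Of the 10 members, 3 held the core (SnRK2.3, SnRK2.7 and SnRK2.9), as did 22.9% of 27443 protein-coding promoters of the same length. The drought-responsive element core CCGAC, searched on both strands, was in 0 of the 10 windows and in 12% of all promoters. A match describes the letters only.

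After limits on RNA counts per barcode (over 1000 and under 25000), 3213 nuclei remained in control 1, 6133 in control 2, 7687 in stress 1 and 6499 in stress 2, with 17567594 to 37717096 RNA counts. Control 1 stood apart in its open chromatin part, with a median of 679 peak counts per nucleus against 3592 to 4006 in the other libraries. The controls also differed more from each other than the stress libraries did, with a median absolute log2 difference of 0.24 against 0.07 over 20587 genes. Between 26 and 81 barcodes were shared by a pair of libraries. The libraries differed in the share of nuclei that fell into each cluster, so levels in whole libraries carry both a change in the mix of nuclei and a change within nuclei. In such sums, fewer cells of a type and less RNA per cell cannot be told apart. As markers of another tissue, 5 genes of green tissue were followed. Their summed level was 28.4 and 32.1 CPM (counts per 1000000 RNA counts of a library) in control and 242 and 241 CPM in stress, all 4 that could be tested rose, and LHB1B1 was at 0 CPM in 2 libraries. A list of 7 jasmonate and wound genes summed to 818 CPM in control 2, against 141 CPM in control 1 and 81.9 and 84.5 CPM in stress, with LOX2 at 0 CPM in 3 libraries. None of the 6 tested was called, and 3 of 4 fell with the same mix of nuclei. The part of either list in the results below was not tested.

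In whole libraries, the family as a sum stood at 264 and 276 CPM in control and at 375 and 395 CPM in stress. Subclass II accounted for most of that difference. Its sum was 26.7 and 36.6 CPM in control and 99.8 and 113 CPM in stress, while subclass I moved from 188 and 184 CPM to 209 and 212 CPM and subclass III from 49.5 and 55.0 CPM to 66.0 and 70.4 CPM. A gene was called where edgeR's quasi-likelihood test gave a Benjamini-Hochberg adjusted p under 0.05 over all genes tested. By this rule SnRK2.8 and SnRK2.9 rose, 0 members fell and 8 were not called, while 6.8% of the 20587 genes tested rose and 3.07% fell. The stress libraries did not overlap the controls for 9 of the 10 members, but this held for 69.1% of all genes tested, so it says little about the family. The scaling of the fit shifted log2 changes by -0.2 against plain CPM, and fitted changes are relative to that shift.

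**Figure D1:**
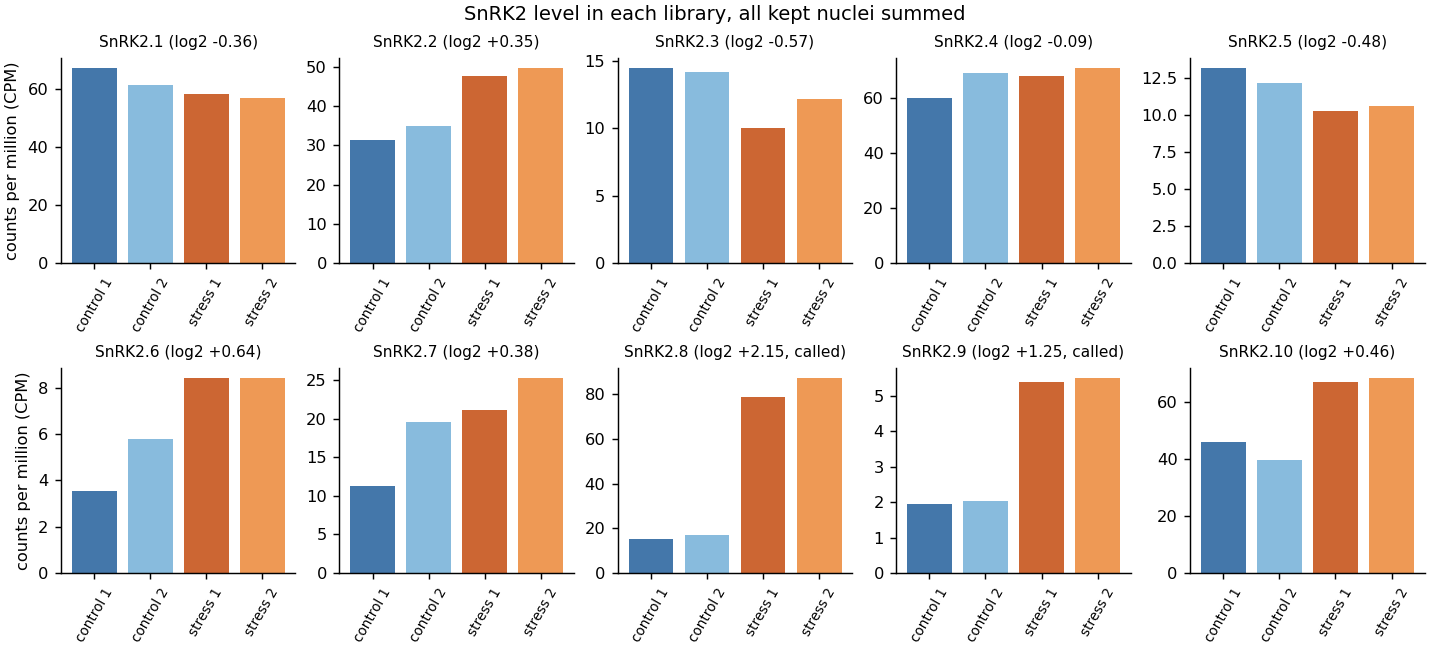
SnRK2 level in each library, with 1 panel per kinase, the 4 libraries on the x axis and CPM on the y axis from 0. Bars are single libraries and titles give the fitted log2 change. SnRK2.8 stands at 78.7 and 87.3 CPM in stress against 15.4 and 17.0 CPM in control, the widest gap of the family.

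SnRK2.8 (AT1G78290, chr1:29457205-29459493, minus strand) is a subclass II kinase known for promoting leaf growth and drought tolerance. Its level was 15.4 and 17.0 CPM in control and 78.7 and 87.3 CPM in stress. The groups lay far apart, the replicates of each group were close, and the gene rested on 271 to 2968 counts per library. The fitted change was 2.15 ± 0.12 (log2, SE), a 4.45-fold rise with an adjusted p of 0.0177. The mean level of SnRK2.8 went from 16.2 CPM in control, below SnRK2.1, SnRK2.2, SnRK2.4 and SnRK2.10, to 83.0 CPM in stress, the highest of the family. With the same number of nuclei taken from each of the 12 clusters that allowed it (1681 nuclei per library), the rise was smaller, at 1.46 on the log2 scale with an adjusted p of 0.0084, and 9.88% of genes were called in that fit. The gene overlaps the opposite-strand gene AT1G78280 by 169 bases, and whether counting used strand is not given in the sources used here, so reads from such overlaps cannot be told apart.

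SnRK2.7 (AT4G40010, chr4:18548444-18551183, minus strand) is the other subclass II kinase. It was at 11.3 and 19.6 CPM in control and at 21.1 and 25.3 CPM in stress. The gap between the controls was wider than the gap from control 2 to stress 1. Its fitted change of 0.38 ± 0.29 was not called (adjusted p = 0.386), and with the same mix of nuclei it was -0.17.

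SnRK2.9 (AT2G23030, chr2:9803492-9806731, minus strand) belongs to subclass I and is the member that stayed inactive under osmotic stress when the kinases were assayed in Arabidopsis protoplasts. It was the least abundant member, at a mean of 3.71 CPM over all libraries. Its counts were 34 and 61 in control and 203 and 174 in stress, which gave 1.94 and 2.04 CPM against 5.38 and 5.50 CPM. The rise of 1.25 ± 0.16 was called (adjusted p = 0.0294). It was no longer called with the same mix of nuclei (0.53, adjusted p = 0.507), with added limits on peak counts per nucleus (0.92, adjusted p = 0.057) or with nuclei thinned to 1000 RNA counts (1.08, adjusted p = 0.0922).

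The other 4 members of subclass I were not called. SnRK2.4 (AT1G10940, chr1:3655673-3658612, minus strand) and SnRK2.10 (AT1G60940, chr1:22439063-22442221, minus strand) are both known for keeping root growth going under salt. SnRK2.4 was the most abundant kinase over all libraries, at a mean of 66.9 CPM. Its levels of 59.8 and 68.9 CPM in control overlapped those of 68.1 and 70.9 CPM in stress. SnRK2.10 was at 45.9 and 39.8 CPM in control and at 67.1 and 68.5 CPM in stress. That difference of 0.46 ± 0.12 had an adjusted p of 0.084 and was 0.05 with the same mix of nuclei. SnRK2.1 (AT5G08590, chr5:2783168-2786113, plus strand), at 67.2 and 61.2 CPM in control and 58.1 and 56.9 CPM in stress, had a fitted change of -0.36 ± 0.11 with an adjusted p of 0.109, and a change of 0.00 with the same mix. SnRK2.5 (AT5G63650, chr5:25481334-25483799, minus strand) was at 13.2 and 12.2 CPM in control and at 10.3 and 10.6 CPM in stress. Its change of -0.48 ± 0.12 had an adjusted p of 0.0735, and 382 bases of the gene overlap the opposite-strand gene AT5G63640.

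The ABA-activated subclass III was not called as whole libraries, and its members differed in direction. SnRK2.2 (AT3G50500, chr3:18741444-18744174, minus strand) and SnRK2.3 act together in ABA responses of seeds and roots. SnRK2.2 was at 31.4 and 35 CPM in control and at 47.6 and 49.8 CPM in stress (0.35 ± 0.11, adjusted p = 0.101). SnRK2.3 (AT5G66880, chr5:26710302-26712971, plus strand) was at 14.5 and 14.2 CPM in control and at 10.0 and 12.2 CPM in stress (-0.57 ± 0.14, adjusted p = 0.0746). With the same mix of nuclei, SnRK2.3 fell by 0.83 on the log2 scale and was called (adjusted p = 0.0443). The gene overlaps AT5G09785 and AT5G66890, both on the opposite strand. SnRK2.6 (AT4G33950, chr4:16271745-16274825, plus strand), also called OST1, closes stomata in leaves, and in the root it was at 3.53 and 5.77 CPM in control and at 8.43 CPM in each stress library (0.64 ± 0.26, adjusted p = 0.16).

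The number of calls in whole libraries depended on which library was left out. Without control 1 or control 2, 9 members were called, along with 12248 and 12744 of all genes. Without stress 1 or stress 2, edgeR called 0 members and 0 genes, although SnRK2.8 kept its size (2.09 to 2.22 over the 4 omissions), and 2 and 3 members were under an unadjusted p of 0.05. With 1 library left in a group, its spread is taken from the other group.

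Nuclei were then grouped by their RNA, with the 10 kinases left out of the genes used, and 14 of 20 clusters were named from marker genes of root cell types. Names carry "-like" because they rest on these markers. Clusters that missed the limits on markers or came almost wholly from 1 library stayed unnamed. The atrichoblast-like cluster rested on 3 of 9 markers and the root cap-like cluster on 4 of 20. The iron-uptake epidermis-like clusters 0 and 6 rested on 5 and 3 of 10 markers. The stele and pericycle-like clusters 7 and 8 rested on 6 and 4 of 18. None of these markers was among the 10 leading genes of its cluster, except 1 in cluster 7. The mitotic-like cluster rested on 14 of 14. With at least 20 nuclei in every library, 8 classes were kept. The levels below are CPM within a class of a library. Orders of classes leave out the 8364 nuclei of unnamed clusters and the named classes that were not kept.

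SnRK2.7 was the member with the sharpest pattern. In the trichoblast-like class, the cells that grow root hairs, it stood at 95.4 and 194 CPM in control and at 128 and 145 CPM in stress. The next class, iron-uptake epidermis-like, reached 25.5 to 36.1 CPM, and these ranges did not overlap. The lowest class, atrichoblast-like (epidermis without hairs), lay at 1.71 to 4.46 CPM. Trichoblast-like nuclei were 2.1% to 5.01% of a library and held 28.6% to 46.5% of its SnRK2.7 counts.

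SnRK2.8 was highest in the iron-uptake epidermis-like class, at 124 and 54.8 CPM in control and 174 and 201 CPM in stress, followed by the cortex-like class at 42.2 and 16.3 CPM in control and 173 and 162 CPM in stress. The ranges of these neighbours overlapped. Iron-uptake epidermis-like nuclei held 63.5% and 54.1% of the SnRK2.8 counts in control and 44.7% and 46.9% in stress, against 12.9% and 21.4% and then 25.9% and 27.0% of the nuclei. The atrichoblast-like class was lowest, at a mean of 7.69 CPM.

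SnRK2.4 was highest in the root cap-like class (142 to 188 CPM), above the iron-uptake epidermis-like class (88.8 to 164 CPM) with overlapping ranges. It was lowest in the mitotic-like class (31.3 to 42.7 CPM), the last step of the order being its only one without overlap. Among the kept classes SnRK2.1 went the other way, highest in the atrichoblast-like class (91.7 to 107 CPM) and lowest in the trichoblast-like class (27.0 to 45.0 CPM). The atrichoblast-like range overlapped only that of the cortex-like class (52.9 to 95.7 CPM). In the unnamed cluster 12, SnRK2.1 was higher than in every kept class, at 153 to 179 CPM. SnRK2.10 had its highest mean in the iron-uptake epidermis-like class (107 CPM) and its lowest in the mitotic-like class (25.3 CPM). SnRK2.2 ranged only from a mean of 58.7 CPM in the iron-uptake epidermis-like class to 27.4 CPM in the mitotic-like class, with every neighbour in the order overlapping. SnRK2.3 and SnRK2.6 had means of 5.90 to 25.9 CPM and 0.564 to 14.2 CPM. Of the kept classes, SnRK2.5 had its highest means in the cortex-like, mitotic-like and atrichoblast-like ones (16.3, 14.8 and 12.4 CPM). It was higher in cluster 12, at 34.1 to 60.1 CPM. SnRK2.9 had a mean of 33.3 CPM in the root cap-like class and at most 7.06 CPM elsewhere. The root cap-like value rested on 42 counts in all, at 17.8 and 0 CPM in control and 78.3 and 37.0 CPM in stress, and was too sparse to be tested.

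**Figure D2:**
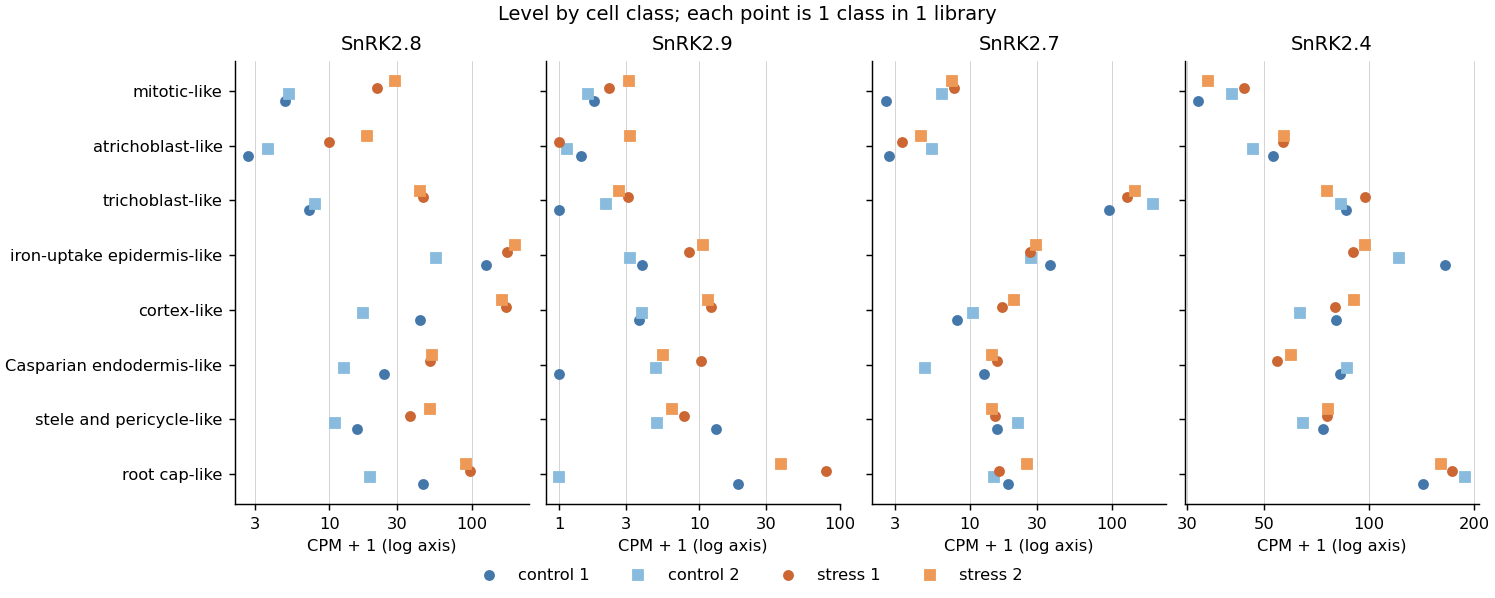
Level of SnRK2.8, SnRK2.9, SnRK2.7 and SnRK2.4 by cell class. The y axis lists the 8 classes, the x axis is CPM + 1 on a log axis, and each point is 1 class in 1 library. SnRK2.7 in the trichoblast-like class (95.4 to 194 CPM) lies apart from every other class. The stress points of SnRK2.8 lie to the right of both controls in each class, as do those of SnRK2.9 in 6 of the 8.

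Within the classes, 64 of the 80 pairs of a kinase and a class passed the low-count filter, and 12 were called, of which 9 rose and 3 fell. SnRK2.8 made up 5 of the rises. In all 8 classes both stress libraries were above both controls for SnRK2.8, with fitted changes of 0.89 to 2.46. This order also held in 7 classes for SnRK2.2, in 6 for SnRK2.9 and in 1 to 4 for the other kinases. Its share over all genes within classes was not counted, and in whole libraries groups did not overlap for 69.1% of genes tested. In the trichoblast-like class SnRK2.8 went from 6.22 and 6.95 CPM to 44.5 and 42.2 CPM (2.46 ± 0.32, adjusted p = 0.00535). It was the only member called there, where 8.74% of genes were called.

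In the mitotic-like class SnRK2.8 went from 3.92 and 4.22 CPM to 20.7 and 28.1 CPM (2.35 ± 0.37, adjusted p = 0.00814), again the only member called, against 7.76% of genes. In the atrichoblast-like class it went from 1.71 and 2.73 CPM to 8.98 and 17.3 CPM (2.28 ± 0.41, adjusted p = 0.0133), the only call beside 8.27% of genes. In the stele and pericycle-like class it went from 14.6 and 9.93 CPM to 35.6 and 49.6 CPM (1.87 ± 0.29, adjusted p = 0.00343), the only call beside 10.1% of genes. The whole-library level of SnRK2.8 moved with these low levels, and the part of RNA free in the nuclei suspension was not tested. The call of SnRK2.8 was lost without stress 1 or stress 2 in the trichoblast-like class (adjusted p = 0.117 and 0.0671) and the mitotic-like class (0.0671 and 0.148), and without stress 2 in the atrichoblast-like class (0.108) and the stele and pericycle-like class (0.0794), while its change stayed between 1.48 and 2.68 in these 4 classes.

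In the root cap-like class the change of SnRK2.8 was 1.69 ± 0.48 (adjusted p = 0.0857), and in the Casparian endodermis-like class, where the barrier of the Casparian strip is laid down, it was 1.72 ± 0.54 (adjusted p = 0.14). Without control 1 both were called (2.25, adjusted p = 0.00195, and 2.02, adjusted p = 0.0461), and without control 2 they were 1.07 and 1.11. No member was called in these small classes, where edgeR called 3.74% and 2.26% of genes. At an unadjusted p under 0.05, SnRK2.8 was the only member to pass in either class. The rises of SnRK2.8 in 5 classes were not called as different from those in all other nuclei (class by stress interaction, adjusted p of 0.666 to 0.904). The lowest adjusted p of SnRK2.8 in that test was 0.212, in the iron-uptake epidermis-like class (-1.65 ± 0.47). On simulated counts for the trichoblast-like class, the interaction test recovered 16% of 2-fold and 91% of 4-fold differences.

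The cortex-like class had the most calls, 6 of 10 members, in a class where 24.9% of all genes were called. SnRK2.8 rose there by 2.31 ± 0.37 (adjusted p = 0.00853), a call that held in 7 of 9 alternatives that kept all libraries. SnRK2.6 rose from 1.80 and 2.87 CPM to 17.0 and 17.3 CPM (2.67 ± 0.43, adjusted p = 0.00866), on 2 and 3 control counts against 83 and 78 in stress. SnRK2.9 rose from 2.7 and 2.87 CPM to 11 and 10.6 CPM (1.76 ± 0.43, adjusted p = 0.0308), on 3 counts in each control against 54 and 48 in stress. SnRK2.2 rose from 32.3 and 35.4 CPM to 56.5 and 60.4 CPM (0.60 ± 0.17, adjusted p = 0.0454). The call of SnRK2.2 held in only 3 of 14 settings, the one reported included, and was lost with RLE scaling (adjusted p = 0.0525) and with DESeq2 (adjusted p = 0.329). That of SnRK2.9 was lost with DESeq2 (adjusted p = 0.163).

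SnRK2.1 and SnRK2.5, of subclass I, fell in the cortex-like class. SnRK2.1 was at 82.7 and 95.7 CPM in control and at 54.4 and 52.9 CPM in stress (-0.92 ± 0.16, adjusted p = 0.0115). SnRK2.5 was at 21.6 and 23.0 CPM in control and at 10.0 and 10.6 CPM in stress (-1.30 ± 0.24, adjusted p = 0.0137). Without stress 1 or stress 2, the calls of SnRK2.1 (adjusted p = 0.186 and 0.207), SnRK2.5 (0.162 and 0.123), SnRK2.6 (0.0591 and 0.0551), SnRK2.9 (0.344 and 0.31) and SnRK2.2 (0.32 and 0.394) were lost, as was that of SnRK2.2 without control 1 (0.0695). The class joins 2 clusters that filled differently. In the controls, cluster 3 had 126 and 34 nuclei against 998 and 886 in stress, while cluster 13 had 130 and 144 against 121 and 102. Within cluster 3 alone, where 9.17% of genes were called, SnRK2.8 was the only member called, from 104 and 149 CPM to 199 and 188 CPM (0.66 ± 0.22, adjusted p = 0.0443). There SnRK2.1 had a change of 0.29 ± 0.38, SnRK2.5 of -0.53 ± 0.76 and SnRK2.6 of 2.2 ± 0.83. SnRK2.9 had a change of 0.97 ± 0.8 and SnRK2.2 of 0.16 ± 0.31. Adjusted p values of these 5 ran from 0.0931 to 0.838. In cluster 13 the change was -0.06 ± 0.23 for SnRK2.1, -0.04 ± 0.34 for SnRK2.5 and 0.49 ± 0.31 for SnRK2.2 (adjusted p = 0.919, 0.968 and 0.454). SnRK2.6, SnRK2.8 and SnRK2.9 did not pass the low-count filter in cluster 13. The part of the mix of the 2 clusters in the calls of the class was not tested.

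In the iron-uptake epidermis-like class SnRK2.3 fell and SnRK2.9 rose, 2 of 10 members beside 9.18% of genes. SnRK2.3 was at 46.2 and 28.6 CPM in control and at 13.9 and 14.9 CPM in stress (-1.52 ± 0.26, adjusted p = 0.0230). SnRK2.9 went from 2.89 and 2.18 CPM to 7.49 and 9.60 CPM (1.63 ± 0.35, adjusted p = 0.0396). Its call was lost with DESeq2 (adjusted p = 0.154), with clusters made without the genes called in whole libraries (0.0563), without control 2 (1.32, adjusted p = 0.16) and without stress 1 or stress 2 (0.115 and 0.352). The call of SnRK2.3 was lost without stress 1 (-1.51, adjusted p = 0.0519). SnRK2.8 was not called there (0.89 ± 0.37, adjusted p = 0.200), and its value depended on the setting. It was -0.80 (adjusted p = 0.248) when nuclei were also limited by peak counts and clustered anew. The class so named was then another set, with 307 and 1189 control and 155 and 127 stress nuclei, against 1988 and 1752 stress nuclei here. The change of SnRK2.8 was 0.93 and called with no low-count filter (adjusted p = 0.0146), 1.52 without control 1 and 0.36 without control 2.

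The iron-uptake epidermis-like class too joins unlike clusters, cluster 0 with 249 and 87 control and 1983 and 1744 stress nuclei, and cluster 6 with 167 and 1224 control and 5 and 8 stress nuclei. Within cluster 0, where 7.63% of genes were called, SnRK2.3 went from 50.3 and 62.3 CPM to 14 and 14.9 CPM (-1.95 ± 0.26, adjusted p = 0.000184), so its fall was also present inside 1 cluster. SnRK2.4 fell there from 144 and 107 CPM to 89.1 and 95.7 CPM (-0.62 ± 0.17, adjusted p = 0.0281) and SnRK2.10 from 138 and 205 CPM to 107 CPM in each stress library (-0.60 ± 0.16, adjusted p = 0.0242). SnRK2.8 was at 139 and 142 CPM in control and at 175 and 202 CPM in stress in cluster 0, a difference of 0.36 ± 0.16 that was not called (adjusted p = 0.212). SnRK2.9 was not called there either (1.39 ± 0.77, adjusted p = 0.323), on 3 and 0 control counts against 57 and 62 in stress. The stele and pericycle-like class joins cluster 7 (63 and 72 control, 655 and 558 stress nuclei) and cluster 8 (86 and 1105 control, 16 and 11 stress nuclei), and within cluster 7 SnRK2.8 had a change of 1.49 ± 0.64 (adjusted p = 0.360).

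Clusters that stayed unnamed also showed the rise of SnRK2.8. It was the only member called in cluster 1, with the peptide genes RGF4 and RGF8 among its leading genes (1.94 ± 0.35, adjusted p = 0.0132, beside 9.59% of genes), in cluster 2 (1.48 ± 0.30, adjusted p = 0.0207, beside 8.29%) and in cluster 12 (4.31 ± 0.75, adjusted p = 0.0160, beside 4.32%). In cluster 12 the controls had 0 and 1 counts against 31 and 24 in stress, so the fitted size depends on the prior count. Cluster 14, with 332 of its 334 nuclei from control 1 and heat-shock genes in the lead, and cluster 11, with 744 of 759 nuclei from control 2 and the jasmonate synthesis genes AOC1 and AOC2 in the lead, gave no comparison.

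**Figure D3:**
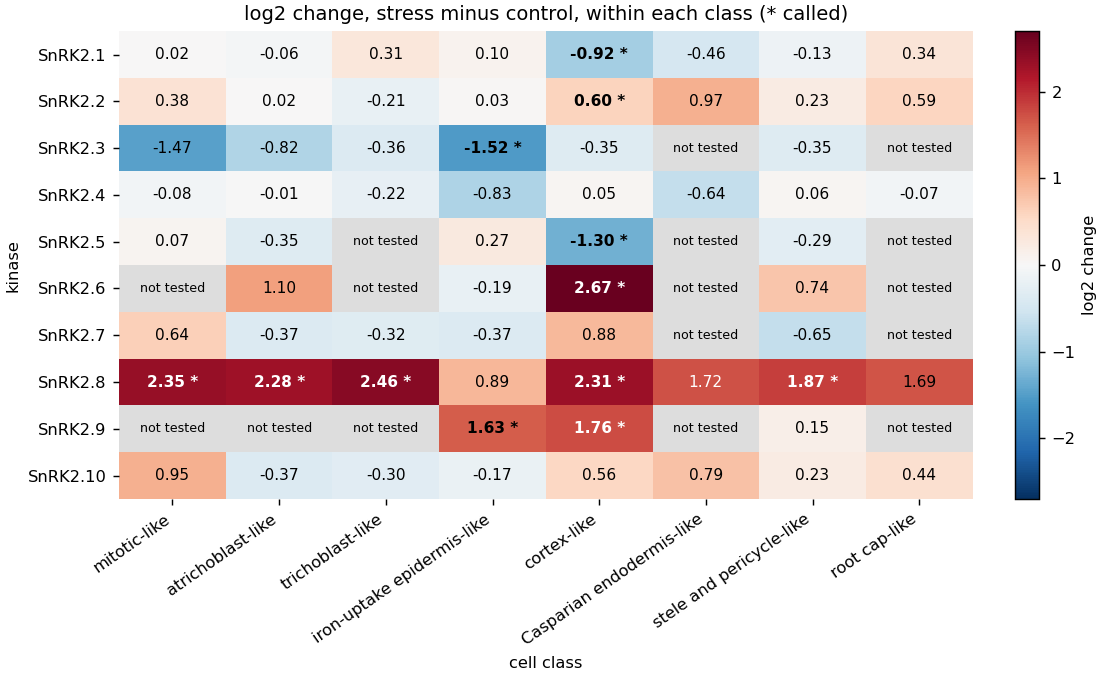
Fitted log2 change of each kinase (rows) in each cell class (columns), stress minus control, with red for higher and blue for lower in stress. Stars mark the 12 called pairs and grey cells the pairs that were not tested. SnRK2.8 runs as a red row from 0.89 to 2.46, and SnRK2.3 as a blue row from -1.52 to -0.35.

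The test of whether a class changed differently from all other nuclei called 2 of 80 pairs, both in the trichoblast-like class, where 3.77% of genes were called. SnRK2.7 there was at 95.4 and 194 CPM in control and 128 and 145 CPM in stress, while in all other nuclei it was at 6.38 and 14.4 CPM in control and 15.4 and 18.2 CPM in stress. The difference of the changes was -0.93 ± 0.21 (adjusted p = 0.00993). SnRK2.10 was at 68.4 and 59.0 CPM in control and 64.4 and 59.6 CPM in stress in the trichoblast-like class, and at 44.6 and 39.2 CPM and then 67.3 and 69.0 CPM in the other nuclei, a difference of -0.90 ± 0.23 (adjusted p = 0.0222). Neither kinase was called within the trichoblast-like class alone (-0.32 ± 0.27 and -0.30 ± 0.21). The mix of the other nuclei differed between the groups, which cannot be told apart here from a change within them. Without stress 1 or stress 2 neither pair was called (adjusted p = 0.386 and 0.504 for SnRK2.7, 0.405 and 0.663 for SnRK2.10), and without control 1 SnRK2.10 was not called (adjusted p = 0.138).

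Open chromatin was read in the same nuclei, as peaks called in each library on its own. The count of a merged region in a library was the sum over that library's own peaks in it. The bases counted could therefore differ between libraries. The start of each of the 10 genes lay in a peak of at least 1 library, and 7 starts lay in a peak of all 4. These 7 regions had changes of -0.10 to 0.17 on the log2 scale, and 0 were called by edgeR or DESeq2, beside 0.213% of 18340 regions called by edgeR. The lowest adjusted p was 0.178, for SnRK2.1, the 1 region with an unadjusted p under 0.05. Its start region held 51.8 and 45.6 peak CPM in control and 51.5 and 52.4 peak CPM in stress. Without control 1, 1 region was called.

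SnRK2.8 was among the 3 genes without a start peak in every library. A region from 227 bases before to 606 bases after its start was a peak in stress 1 (1189 counts, 33.2 peak CPM) and stress 2 (1112 counts, 35.2 peak CPM) and in neither control. Such a pattern was seen in 4.06% of 27679 merged regions. Control 2 had instead a peak over the end of the gene, from 1728 to 2581 bases after the start (1142 counts, 39.9 peak CPM), and control 1 had none near the gene. Reads outside peaks were not analysed here, so the absence of a peak is no measure of closed chromatin, and control 1 had 19858 peaks against 24317 to 25001 in the other libraries.

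At SnRK2.9 the start region was a peak in control 2 (28.0 peak CPM), stress 1 (37.2) and stress 2 (35.6). A region inside the gene, 1152 to 2094 bases after the start, was open in all libraries at 42.5 and 42.7 peak CPM in control and 54.5 peak CPM in each stress library, a difference of 0.42 ± 0.06 that was not called (adjusted p = 0.0649). The start region of SnRK2.3 was a peak in control 2 (70.1 peak CPM), stress 1 (54.1) and stress 2 (64.1). SnRK2.4 had the strongest start region of those tested, at 97.0 to 118 peak CPM.

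**Figure D4:**
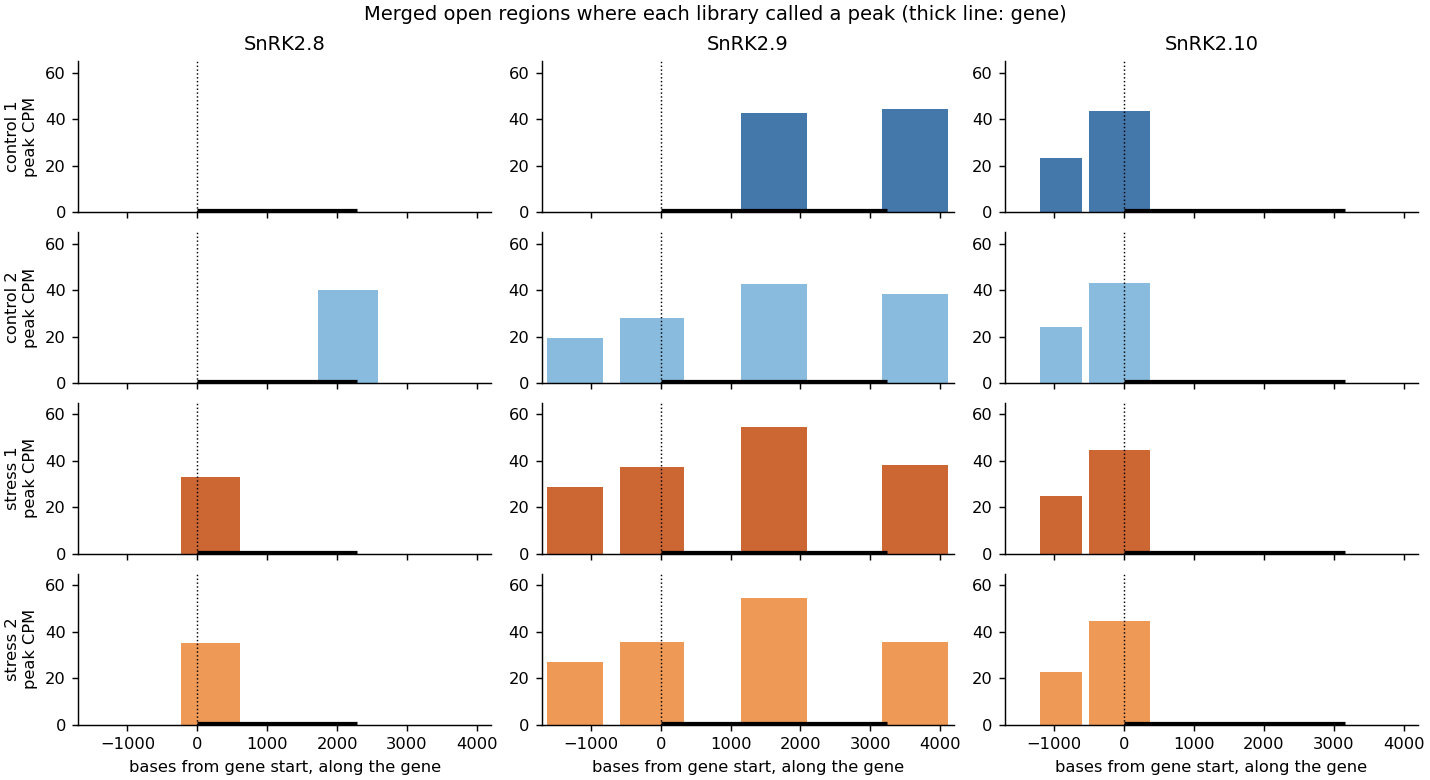
Merged open regions around SnRK2.8, SnRK2.9 and SnRK2.10 in the 4 libraries. The x axis is the distance in bases from the gene start along the gene (thick black line), and the y axis is peak CPM, drawn only where that library called a peak. The start of SnRK2.8 has a bar in the stress libraries alone (33.2 and 35.2 peak CPM), while the start of SnRK2.10 is open at 43.0 to 44.8 peak CPM in all 4.

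Genes that act with the kinases were read from lists of the pathway, each given by its counts and median beside a median log2 change of 0.00 over all genes tested. Of the PYR/PYL receptors, 10 of 14 were tested, 0 rose and 2 fell, with a median of -0.46. PYL6 fell from 9.16 and 14.7 CPM to 4.35 and 4.30 CPM (-1.67 ± 0.26) and PYL2 from 3.24 and 2.8 CPM to 1.11 and 1.14 CPM (-1.62 ± 0.21). Of the clade A PP2C phosphatases, 8 of 9 were tested, 1 rose and 0 fell, with a median of 0.68. The riser was ABI1, from 24.2 and 27.6 CPM to 44.5 and 49.3 CPM (0.66 ± 0.12, adjusted p = 0.0476). With the same mix of nuclei, the 2 receptors that fell were called again, while ABI1 was not (0.49, adjusted p = 0.0703) and 0 of 7 phosphatases tested were called.

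Of the B2 and B3 Raf-like kinases, which phosphorylate subclass III, 11 of 12 were tested, 1 rose and 0 fell (median 0.46). AT1G73660 rose from 44.8 and 45.5 CPM to 129 and 127 CPM (1.30 ± 0.10, adjusted p = 0.0177). With the same mix of nuclei its rise was 0.67 (adjusted p = 0.0295), and 2 of 11 genes rose, the other being AT3G06640, named after its values were seen (2.51, adjusted p = 0.048). AT3G06640 was sparse in whole libraries, at 0.114 and 0.5 CPM in control and 1.33 and 1.3 CPM in stress. It was not called there (adjusted p = 0.109). All 7 of the B4 Raf-like kinases, which phosphorylate subclass I, were tested and 0 were called (median -0.05), the most abundant being AT2G35050 at a mean of 34.1 CPM.

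On the substrate side, 7 of 8 bZIP factors of ABA signalling were tested and 0 were called (median 0.46). ABF3 was at 102 and 94.7 CPM in control and 165 and 172 CPM in stress (adjusted p = 0.0508), and ABF4 at 25.0 and 30.0 CPM and then 50.9 and 48.2 CPM (adjusted p = 0.0525). All 6 decapping genes, VARICOSE (VCS) among them, were tested and 0 were called (median -0.02). Of 4 membrane substrates, the guard cell channels KAT1 and SLAC1 (listed as OZS1) were at 0 CPM in every library, and the oxidases RBOHF and RBOHD had changes of -0.08 ± 0.16 and -0.75 ± 0.19, neither called.

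Of 16 genes that ABA or osmotic stress induces in Arabidopsis, 13 were tested, 4 rose and 0 fell, with a median of 0.10. LTI65 rose from 0.114 and 0.0667 CPM to 1.59 and 0.916 CPM (3.64 ± 0.58), RAB18 from 0.171 and 0.300 CPM to 1.64 and 1.71 CPM (2.54 ± 0.33) and the transcription factor HB-7 from 8.42 and 9.34 CPM to 40.8 and 45.4 CPM (2.08 ± 0.12). The fourth, P5CS1 of proline synthesis, was named after its values were seen (1.36 ± 0.11). With the same mix of nuclei 12 were tested, 3 rose and 1 fell. HB-7 (1.43) and P5CS1 (0.99) were called again, RAB18 was not (1.39, adjusted p = 0.172) and LTI65 was too sparse to be tested. KIN2 rose there (0.58, adjusted p = 0.0437) and NCED3, of ABA synthesis, fell by 1.33 on the log2 scale (adjusted p = 0.0186), both named after their values were seen. Others of the list moved mainly with control 2, such as COR47 at 581 and 1220 CPM in control and 953 and 1010 CPM in stress.

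**Figure D5:**
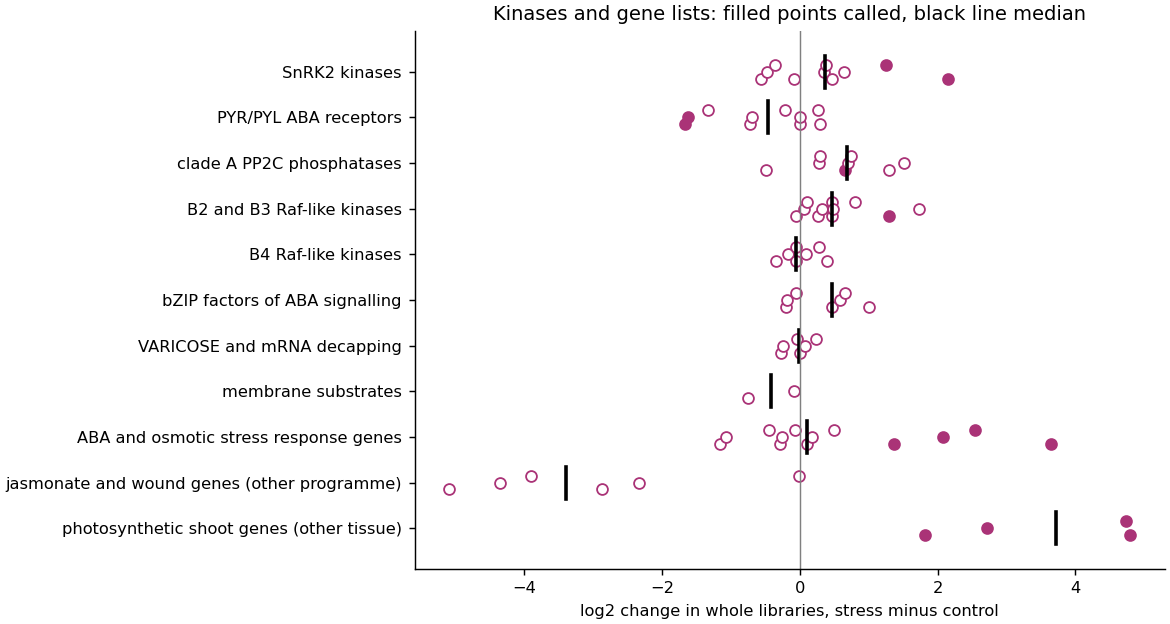
Fitted log2 change in whole libraries, stress minus control (x axis), of the SnRK2 kinases and of each gene list (y axis). Points are genes, filled where called, and black lines are medians. SnRK2.8 at 2.15 and SnRK2.9 at 1.25 are the filled points among the kinases, and the list of green tissue genes has 4 filled points and a median of 3.72.

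The genes whose pattern over classes and libraries was most like that of each kinase were found by Pearson's r of log2(CPM + 1) over 32 points (8 classes in 4 libraries) among 15157 genes. The points of a library share its depth and those of a class share its cells, so r is a description. SnRK2.8 was most like MLP329 (r = 0.97) and AT5G42825 (r = 0.95), which also had their highest class in iron-uptake epidermis-like nuclei. SnRK2.10 was most like HK3, a cytokinin receptor (r = 0.96), and SnRK2.7 like AT5G63270 (r = 0.93), which was highest in the trichoblast-like class. SnRK2.1 was most like the sterol isomerase gene CPI1 (r = 0.91). For the sparser SnRK2.3, SnRK2.5, SnRK2.6 and SnRK2.9 the highest r was 0.80 to 0.87.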

How the data were processed

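Nuclei of root tips from 2 control and 2 osmotic stress samples were profiled by 10x multiome sequencing. Per the labels, the authors used Cell Ranger ARC 2.0.2 with the TAIR10 genome and Seurat 4.3.0. The deposited counts are raw UMI counts per gene and raw transposition counts per peak, per barcode, with peaks called in each library alone.

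Barcodes with over 1000 and under 25000 RNA counts were kept and summed per library, or per library and class. The study's added limits on peak counts (over 1000 and under 100000) kept 46.1% of the control 1 nuclei against 77.7% to 85.8% elsewhere and were an alternative. Sums were tested with edgeR 4.0.16 in R 4.3.3 (TMM, filterByExpr, quasi-likelihood, Benjamini-Hochberg adjustment over all features). SE is the absolute log2 change over the square root of F. On simulated counts for the whole-library comparison (20547 genes), 46% of 2-fold and 99% of 4-fold changes were recovered.

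Nuclei were clustered with scanpy 1.11.5 (2000 variable genes without the kinases, 30 components, 20 neighbours, Leiden resolution 0.6), with no doublet caller. Naming a cluster needed at least 3 markers and 20% of a list, each detected in 10% of its nuclei and 2-fold over the rest. The list also needed a lead of 1.5 over other lists, and no other list could hold more of the cluster's leading genes. At most 95% of a cluster's nuclei could come from 1 library. These limits were set after the data were seen. Peaks of 20 to 10000 bases were merged at 1 base of overlap. In RefSeq (TAIR10.1), 32548 of 32833 identifiers matched, all within 50 bases of the deposited position.

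All 10 members are named, and of a list the called genes (at most 3 by size of change), otherwise 1 or 2 by mean level. Likeness was computed for genes of at least 5 CPM. The members and lists were chosen with earlier results of these data known. Alternatives were other limits on nuclei, thinning, an equal number or mix of nuclei, RLE scaling, DESeq2 1.42.0, no filter, organelle genes left out, other clusterings, merging at 100 bases, a replicate block and each library left out.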

Additional observations from a re-analysis of the deposited data

Results flagged for a closer look

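SnRK2.7 was flagged because its stress change in the trichoblast-like class differed from that in all other nuclei by the interaction test, with a log2 difference of -0.93. It was at 95.4 and 194 CPM in control and 128 and 145 CPM in stress in that class, and at 6.38 and 14.4 CPM and then 15.4 and 18.2 CPM elsewhere. SnRK2.10 was flagged for the same reason, with a log2 difference of -0.90, at 68.4 and 59.0 CPM in control and 64.4 and 59.6 CPM in stress in the class and at 44.6 and 39.2 CPM and then 67.3 and 69.0 CPM elsewhere.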

How the results depend on the processing

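Of the single values given for a kinase, 254 kept their direction and side of the threshold under an alternative, 54 were no longer called, 20 became called and 3 changed sign. The 3 were SnRK2.1 (0.00) and SnRK2.7 (-0.17) in whole libraries with the same mix of nuclei, and SnRK2.8 in the iron-uptake epidermis-like class (-0.80) with limits on RNA and peak counts and new clusters. In that last setting the class held 155 and 127 stress nuclei, against 1988 and 1752 in the fit reported. The cause of the 3 changes of sign was not tested. The 2 members called in whole libraries became 1 with limits on RNA and peak counts and 1 with nuclei thinned to 1000 counts, and 0 to 9 when 1 library was left out. Genes called over all were 2033 in the fit reported, 969 with peak limits, 500 with thinning, 3439 with DESeq2 and 3055 over every deposited barcode. The 12 pairs of kinase and class became 6 with RNA and peak limits and new clusters, 1 with 50 nuclei of a class from each library (26 pairs tested), and 2 to 21 when 1 library was left out (21 without control 1, 15 without control 2, 3 without stress 1, 2 without stress 2). Leaving out clusters mostly of 1 library gave 12, and fitting each cluster alone gave 10 of 92 pairs, both chosen after seeing the data. The 2 interactions became 5 at clustering resolution 1.0 and 0 to 15 when 1 library was left out. The 0 start regions called became 0 to 1 when 1 library was left out, the 1 being without control 1.

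Replicate numbers did not establish pairs of samples. Deviations of same-numbered samples correlated at 0.105 over 2 pairs, and with the replicate block 2 members, 12 pairs and 0 start regions were called. The pairs were not all the same ones, since SnRK2.2 (adjusted p = 0.113) and SnRK2.9 (adjusted p = 0.0651) in the cortex-like class were not called with the block and SnRK2.8 in the iron-uptake epidermis-like class was (0.97, adjusted p = 0.0273). In whole libraries the block gave 1373 genes. Depth limited the sparse pairs, since 16 of 80 were not tested within classes.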
